A study of Mus musculus with 8 samples.

Results

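The liver sends protein signals to other tissues when food is withheld, and the 9 genes described here encode a set of such signals and of proteins that bind or receive them: *Fgf1*, *Fgf21*, *Angptl4*, *Angptl8*, *Igfbp1*, *Igfbp2*, *Inhbe*, *Fst* and *Lepr*. They were chosen by symbol, and all 9 were found among the 55385 gene identifiers of the deposited table. RNA was measured by sequencing in whole livers of 8 male mice, each 5 weeks old and fasted for 16 h, with 1 library per mouse. In 4 *Usp39*-HKO mice, *Usp39* fl/fl alleles were deleted by a Cre recombinase driven by the albumin promoter, which is active in hepatocytes, and the study targeted exon 2. *Usp39* encodes a component of the spliceosome, the complex that removes introns from RNA. The 4 control mice are WT in the labels and control littermates in the study, and whether they carried the floxed alleles is not given in the sources used here. Other cells of a *Usp39*-HKO liver, such as endothelial cells, Kupffer cells and stellate cells, keep the gene. No mouse was fed, so no level below can be set against the fed state.

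In a fasted liver, falling insulin and rising glucagon, glucocorticoids and fatty acids act through transcription factors such as FOXO1, the glucocorticoid receptor and PPAR-alpha. PPAR-alpha induces *Fgf21*, a hormone that acts on fat and brain, and *Angptl4*, an inhibitor of lipoprotein lipase, the enzyme that takes fatty acids out of circulating triglyceride. Insulin instead represses *Igfbp1*, whose product holds insulin-like growth factors in the blood, and induces *Angptl8*. ATF4, the transcription factor of the integrated stress response, can induce *Fgf21* and *Inhbe* as well.

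For 6 of the 9 genes, RefSeq windows on GRCm38.p6 from 250 bases before the start of transcription to 50 bases after it were at hand (*Fgf21*, *Angptl8*, *Igfbp1*, *Igfbp2*, *Inhbe* and *Lepr*). Windows of *Fgf1*, *Fst* and *Angptl4* were missing. The 4 stretches below are shown because they hold letters of an element that can respond to stress or to insulin. Each is written 5′ to 3′ on the strand of its gene, and capitals mark the matched letters.
Fgf21: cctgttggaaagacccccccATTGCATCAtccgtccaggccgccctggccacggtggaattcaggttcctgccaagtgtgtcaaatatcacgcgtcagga
Angptl8: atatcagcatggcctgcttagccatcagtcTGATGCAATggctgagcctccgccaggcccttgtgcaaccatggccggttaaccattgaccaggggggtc
Inhbe: catcctctttcTTGCATCAtgcatgtccac
Igfbp1: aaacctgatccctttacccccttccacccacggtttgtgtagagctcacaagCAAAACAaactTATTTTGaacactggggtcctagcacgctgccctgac
The stretch of *Fgf21* is chr7:45615551-45615650 on the minus strand, that of *Angptl8* is chr9:21835350-21835449 on the plus strand, that of *Inhbe* is chr10:127352011-127352040 on the minus strand, and that of *Igfbp1* is chr11:7197627-7197726 on the plus strand. Positions are counted back from -1, the base before the RefSeq start.

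The composite element bound by ATF4 with a C/EBP partner was searched as TGATGNAAT on both strands. It stood in *Fgf21*, on the opposite strand with its leftmost base at -140, and in *Angptl8*, on the gene's strand from -130. Of all 27025 genes with such a window, 1.08% held it. The core TGATGCAA, which overlaps the composite element and was added after the windows had been read, was also found in *Inhbe*, on the opposite strand at -181. It was thus held by 3 of the 6 genes and by 1.03% of all genes with a window. The *Inhbe* match lies within the span of the GENCODE vM21 gene model, which starts further upstream than the RefSeq one. The insulin response element, searched as TNTTTTG and also added afterwards, occurred in *Igfbp1* on both strands (-108 and -97) and in *Lepr*, against 20.9% of all genes. The letters of 1 form of a FOXO site (GTAAACA, 4.05% of all genes), a cAMP response element (TGACGTCA, 2.03%) and a STAT5 site (TTCNNNGAA, 9.55%) were in none of the 6. For FOXO this covers the form GTAAACA only. A match in a window is a description of its letters only.

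All 9 genes are protein-coding in GENCODE vM21 on GRCm38, and reads were counted over all their exons, untranslated parts included. *Fgf21* spans chr7:45613886-45615490, *Angptl4* spans chr17:33773750-33781830, *Inhbe* spans chr10:127348857-127354411 and *Fst* spans chr13:114452290-114458951, all on the minus strand. *Angptl8* spans chr9:21835510-21837347, *Igfbp1* spans chr11:7197782-7202546, *Igfbp2* spans chr1:72824503-72852474 and *Lepr* spans chr4:101717404-101815352, all on the plus strand, and *Fgf1* lies on chromosome 18. The merged exons run from 865 bases in *Angptl8* to 7049 bases in *Lepr*.

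Counts on genes summed to between 8589636 and 10418450 per liver, and the 9 genes had between 108 (*Fst*) and 17023 (*Igfbp2*) reads in a liver, so counting error was small beside the spread between livers. *Usp39* itself had 9.35, 10.4, 8.76 and 9.78 FPKM (reads scaled to exon length and library total) in the controls and 8.37, 8.63, 8.70 and 8.07 FPKM in *Usp39*-HKO livers. All knockout livers were below all controls, with a log2 fold change of -0.41 ± 0.11 (SE, adjusted p = 0.0212, edgeR). The count covers all exons and all cell types, so it checks the direction of the labels but not the loss of exon 2. The defining hepatocyte markers were high in every liver, with a summed FPKM of 15560 to 17170 among controls and 14180 to 18670 among knockout livers (0 of 7 tested rose and 2 fell). Markers of other cells moved with genotype. Cholangiocyte and progenitor markers summed to 26.7 to 29.0 FPKM in controls and 65.4 to 289 in *Usp39*-HKO livers (5 of 5 tested genes rose), and stellate cell and fibroblast markers to 113 to 121 against 168 to 328 (8 of 11 rose). Kupffer cell and macrophage markers summed to 282 to 340 FPKM against 476 to 718 (5 of 7 rose), cycling cell markers to 2.84 to 6.11 against 13.8 to 28.2 (5 of 5 rose), and endothelial markers to 120 to 136 against 126 to 138 (0 of 7 rose and 2 fell). Erythroid markers summed to 294 to 630 FPKM against 139 to 305 (3 of 3 tested fell). The sums are deposited FPKM and the calls use TMM. With library totals alone, 10 of 11 stellate cell and 7 of 7 Kupffer cell markers rose, 2 endothelial markers rose and 1 fell, and 0 hepatocyte markers fell. Control 4 held pancreatic acinar markers at a summed FPKM of 653, against 0.405 to 0.753 in the other controls and 1.18 to 2.63 in *Usp39*-HKO livers, and all islet markers except *Ins2* were at 0 in every liver.

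Of the 9 genes, 2 were lower in *Usp39*-HKO livers, *Fgf1* and *Inhbe*, and none passed the test in the other direction. All 9 passed the filter on low values (FPKM of at least 0.5 in at least 4 livers). By edgeR's quasi-likelihood test with Benjamini-Hochberg adjustment over the 14340 genes tested, 22.5% of all genes were called at an adjusted p under 0.05, 10.9% as higher and 11.6% as lower in *Usp39*-HKO livers. The share called among the 9 genes, 22.2%, was thus near that of all genes. At an unadjusted p under 0.05, edgeR likewise gave 0 genes as higher and 2 as lower. DESeq2 gave 1 and 3, of which 0 and 2 stayed after adjustment, when it called 3484 of all genes. The share of all genes at an unadjusted p is not given, so the unadjusted counts cannot be set against one. The median log2 fold change of the 9 genes was 0.07, against -0.0015 over all genes tested. In the deposited FPKM, the groups did not overlap for 1 of the 9 genes, *Fgf1*, against 28.7% of all genes.

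Fold changes below are relative to the bulk of genes, because the TMM factors that scale each library were 0.911 to 0.940 for controls and 1.01 to 1.19 for knockout livers. With library totals alone, the median of all genes moved to 0.24 on the log2 scale, and rises made up 83.5% of all calls, against 48.4% with TMM. Among the 9 genes, *Inhbe* then lost its call (log2 fold change -0.42, adjusted p = 0.0822) and *Igfbp2* gained one (0.62, adjusted p = 0.0249), while *Fgf1* was lower under both (-1.23, adjusted p = 0.000698 with totals alone).

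**Figure D1:**
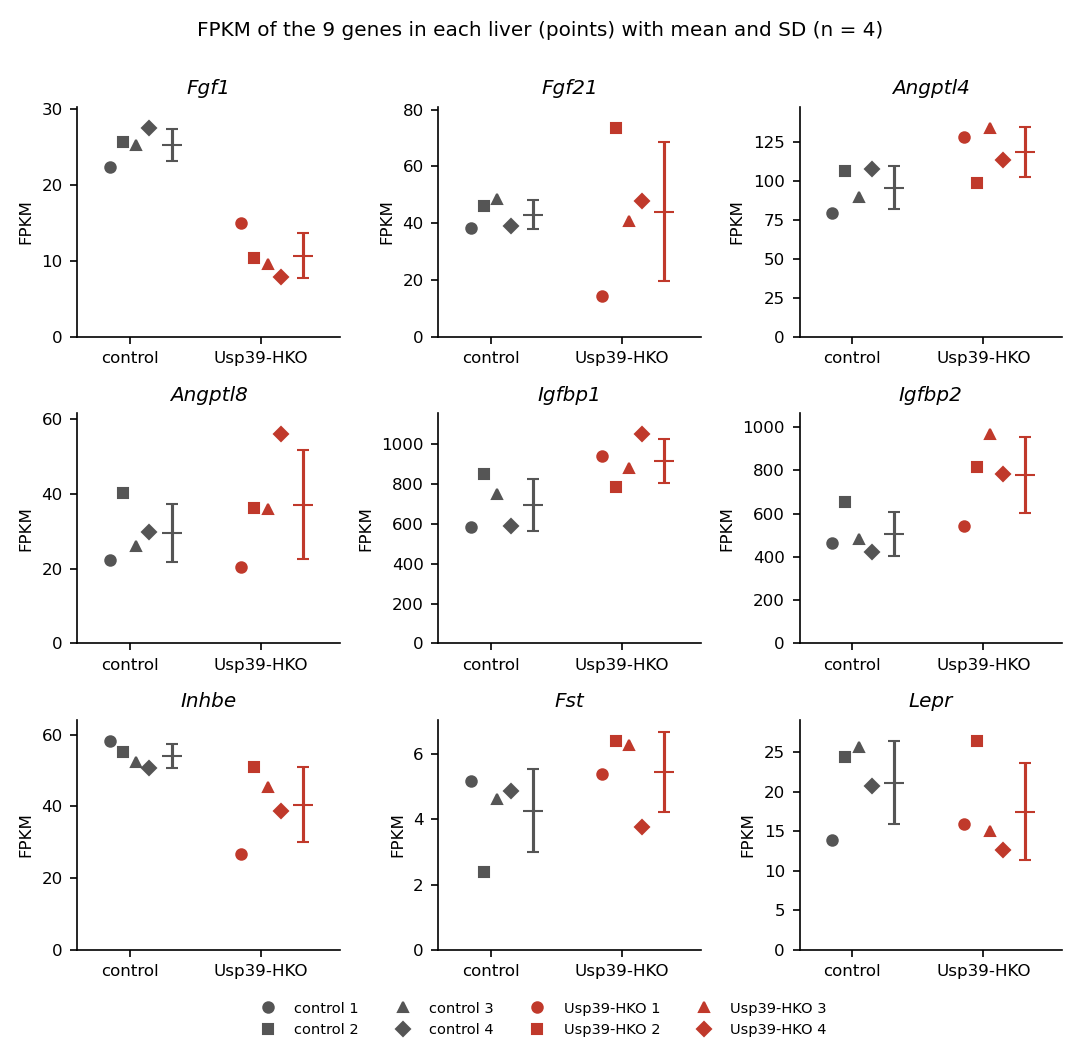
FPKM (vertical axis, linear from 0) of each of the 9 genes in the 4 control and 4 Usp39-HKO livers, with 1 point per liver and the mean ± SD beside the points. The groups are apart for Fgf1 (22.4 to 27.5 against 7.92 to 14.9) and overlap for the other 8 genes, and Usp39-HKO 1 is the lowest liver for Fgf21 at 14.4.

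Among the fibroblast growth factors, *Fgf1* was the gene that changed most. *Fgf1* encodes acidic FGF, a growth factor without a classical signal peptide that acts near the cell releasing it and is known for effects on glucose handling. In controls it stood at 22.4, 25.6, 25.3 and 27.5 FPKM, and in *Usp39*-HKO livers at 14.9, 10.3, 9.59 and 7.92 FPKM. Every knockout liver was below every control, and the gap between the nearest livers of the 2 groups exceeded the whole range of either group. Scaled by TMM, the means were 27.3 ± 1.97 and 9.99 ± 3.41 FPKM (SD, n = 4 each), a 2.73-fold lower level (log2 fold change -1.45 ± 0.20 SE, 95% interval -1.88 to -1.02, adjusted p = 0.00104, edgeR). Leaving out any 1 liver gave log2 fold changes of -1.68 to -1.30, each with an adjusted p of at most 0.00544. In whole liver, fewer cells of a type and less RNA per cell cannot be told apart, and the part that the shift in other cell types has in this value was not tested.

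*Fgf21*, the fasting hormone of the same family, gave no call and was spread widely in *Usp39*-HKO livers. It stood at 38.3, 46.1, 48.5 and 39.2 FPKM in controls, and at 14.4, 73.5, 40.7 and 47.8 FPKM in *Usp39*-HKO livers. The knockout livers included both the lowest and the highest of all 8, with a 5.11-fold range against 1.27-fold in controls. The log2 fold change was -0.21 ± 0.33 (SE, 95% interval -0.94 to 0.51, adjusted p = 0.690, edgeR), an interval that leaves room for a change in either direction. Its sign turned without *Usp39*-HKO 1, the lowest liver (0.09, adjusted p = 0.786), and with library totals alone (0.04).

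Of 6 tested genes among FGF receptors and the coreceptor, 2 rose and 2 fell with TMM (median log2 fold change 0.13), whereas 3 rose and 0 fell with library totals alone (median 0.38). *Fgfr4*, the main receptor of hepatocytes, had 10.1 to 11.6 FPKM in controls and 7.49 to 10.1 in *Usp39*-HKO livers (-0.48 ± 0.12 SE, adjusted p = 0.0140). *Klb*, which encodes the coreceptor beta-klotho needed for FGF21 signalling, went from 14.6 ± 1.27 to 13.5 ± 1.32 FPKM (SD, n = 4 each), with overlapping groups (-0.34 ± 0.11 SE, adjusted p = 0.0395). Both calls were lost with library totals alone (adjusted p = 0.155 for *Fgfr4* and 0.494 for *Klb*), and *Klb* passed in only 2 of the 8 fits that left out 1 liver (adjusted p up to 0.113). *Fgfr1*, the receptor that pairs with *Klb* in fat, rose from 0.826 to 0.940 FPKM in controls to 1.73 to 3.42 FPKM (1.16 ± 0.18 SE, adjusted p = 0.00184), and *Fgfr2* rose by 0.71 ± 0.19 (adjusted p = 0.0223). *Fgfr2* passed in 4 of the 8 fits that left out 1 liver, and not without control 1, control 3, control 4 or *Usp39*-HKO 4 (adjusted p of 0.0563 to 0.0722). None of 7 other FGF ligand genes reached the level needed for testing, and *Fgf10* and *Fgf15* were at 0 in every liver, so among the ligands listed only *Fgf1* and *Fgf21* could be compared.

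The lipase inhibitors showed no call. *Angptl4* stood at 79.4, 107, 90.0 and 108 FPKM in controls and at 128, 98.8, 134 and 114 FPKM in *Usp39*-HKO livers. The knockout livers reached higher, but *Usp39*-HKO 2 lay among the controls. With TMM, the log2 fold change was 0.08 ± 0.15 (SE, 95% interval -0.24 to 0.41, adjusted p = 0.739, edgeR). A change beyond 1.33-fold or below 0.845-fold lay outside that interval, which holds for this scaling only. With library totals alone, the value for *Angptl4* was 0.31 (adjusted p = 0.109). *Angptl8*, whose product takes part in inhibiting the lipase in muscle and heart after feeding, had 22.3, 40.4, 26.0 and 29.8 FPKM in controls and 20.3, 36.3, 35.9 and 56.0 FPKM in *Usp39*-HKO livers. The controls lay within the range of the knockout livers (0.07 ± 0.24 SE, 95% interval -0.46 to 0.59, adjusted p = 0.873). Leaving out *Usp39*-HKO 4 turned its sign (-0.14), as did leaving out control 1 (-0.04).

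Genes around them did move. *Lpl*, the gene of lipoprotein lipase, which hepatocytes of adult mice express little, rose from 13.5 to 15.4 FPKM in controls to 22.9 to 58.2 FPKM in *Usp39*-HKO livers, without overlap (1.02 ± 0.23 SE, adjusted p = 0.00894). *Usp39*-HKO 4 was highest in *Lpl* and also in the summed cholangiocyte, stellate cell and Kupffer cell markers, and the part of those cells in the rise was not tested. *Lmf1*, a factor for lipase maturation, fell by 0.47 on the log2 scale (SE 0.13, adjusted p = 0.0224). In all, 1 of 10 tested genes around the lipase rose and 2 fell, with a median of -0.20. With library totals alone, 2 rose and 0 fell (median 0.02), and *Lmf1* did not pass (adjusted p = 0.141). *Lmf1* passed in 4 of the 8 fits that left out 1 liver (adjusted p up to 0.0662).

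*Igfbp1* and *Igfbp2* were by far the most abundant of the 9 genes, above 99.6% and 99.5% of all genes tested in mean FPKM. *Igfbp1* stood at 581, 848, 750 and 587 FPKM in controls and at 938, 783, 881 and 1047 FPKM in *Usp39*-HKO livers. Control 2 lay above *Usp39*-HKO 2, so the groups overlapped. The log2 fold change was 0.16 ± 0.16 with TMM (SE, 95% interval -0.18 to 0.50, adjusted p = 0.497, edgeR). It was 0.40 with library totals alone (adjusted p = 0.0611) and 0.41 in limma on log2(FPKM + 1) (adjusted p = 0.0797), so its size depended on the scaling. *Igfbp2*, whose product also binds IGFs and is lowered by growth hormone, stood at 466, 654, 483 and 422 FPKM in controls and at 543, 816, 966 and 784 FPKM in *Usp39*-HKO livers. Of the knockout livers, 3 lay above all controls and *Usp39*-HKO 1 lay among them. Its log2 fold change was 0.38 ± 0.19 (SE, 95% interval -0.03 to 0.79, adjusted p = 0.173, edgeR with TMM), and its call depended on the scaling and the tool. It passed with library totals alone, with limma on log2(FPKM + 1) (adjusted p = 0.0489) and log2(FPKM + 0.1) (adjusted p = 0.0495) and with voom weights (adjusted p = 0.0275), and it had an adjusted p of 0.0529 to 0.408 in the fits that left out 1 liver.

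Among 10 other tested genes of the IGF axis, 1 rose and 3 fell (median -0.14). *Igfals*, the acid-labile subunit that stabilises circulating IGF complexes, fell from 10.6 to 17.2 FPKM in controls to 3.60 to 8.70 FPKM in *Usp39*-HKO livers (-1.33 ± 0.25 SE, adjusted p = 0.00401). *Insr*, the insulin receptor, fell from 18.6 to 25.2 FPKM to 13.6 to 18.3 FPKM (-0.75 ± 0.13 SE, adjusted p = 0.00313). *Igfbp4* fell by 0.60 (SE 0.17, adjusted p = 0.0248) and *Igfbp7*, which is also made by endothelial and stellate cells, rose by 0.73 (SE 0.14, adjusted p = 0.00472). With library totals alone, 3 genes of this list rose and 2 fell (median 0.10), and *Igfbp4* had an adjusted p of 0.0560. *Igfbp4* passed in 3 of the 8 fits that left out 1 liver (adjusted p up to 0.0658).

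**Figure D2:**
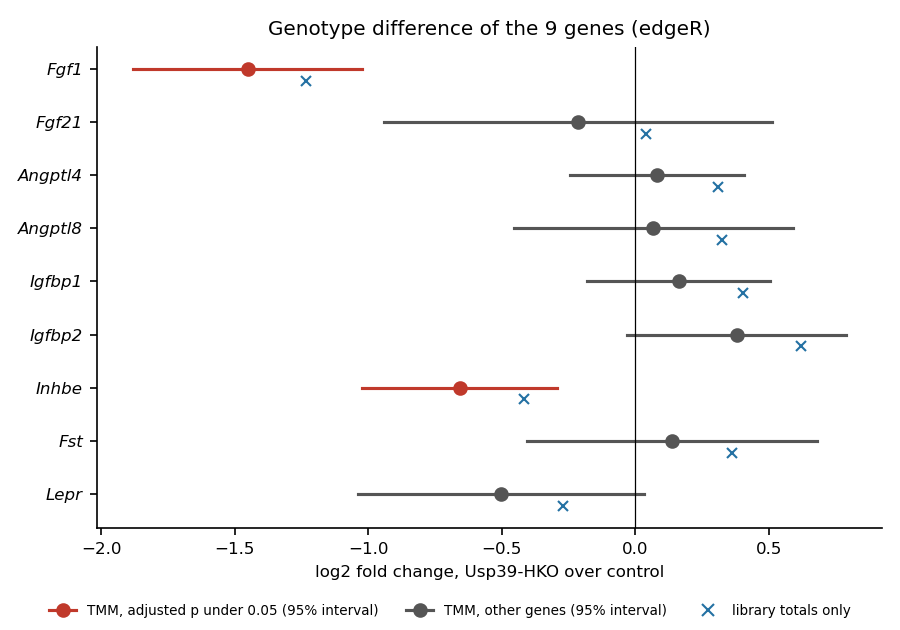
Log2 fold change of the 9 genes (horizontal axis, Usp39-HKO over control) by edgeR with TMM, as points with 95% intervals, and with library totals alone, as crosses. Fgf1 at -1.45 and Inhbe at -0.66 have intervals that lie below 0, the other 7 intervals include 0, and every cross lies to the right of its point.

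*Inhbe*, which encodes the beta-E subunit of the activin family and is made almost only in liver, was the other gene that fell. It stood at 58.3, 55.2, 52.3 and 50.7 FPKM in controls and at 26.8, 51.0, 45.4 and 38.8 FPKM in *Usp39*-HKO livers. The controls lay within a 1.15-fold range, the knockout livers within a 1.91-fold range, and *Usp39*-HKO 2 just exceeded control 4. Scaled by TMM, the groups did not overlap (58.8 ± 4.24 against 37.2 ± 9.36 FPKM, SD, n = 4 each). With this scaling, that was so for 2 of the 9 genes and for 24.9% of all genes tested. The level of *Inhbe* was 1.58-fold lower (log2 fold change -0.66 ± 0.17 SE, 95% interval -1.02 to -0.29, adjusted p = 0.0165, edgeR). The call held in each fit that left out 1 liver (-0.79 to -0.50, adjusted p of at most 0.0470). It was lost with library totals alone, where the log2 fold change was -0.42. Limma fits on log2(FPKM + 1) (-0.45, adjusted p = 0.0894) and log2(FPKM + 0.1) (-0.46, adjusted p = 0.0915) did not make the call either. The value stayed below 0 in these fits, but whether it passed depended on the scaling.

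*Inhbc*, the beta-C subunit gene, lies next to *Inhbe* on chromosome 10, 1910 bases away on the same strand. It fell as well, from 35.5 ± 8.18 to 24.4 ± 7.95 FPKM (SD, n = 4 each), with overlapping groups (-0.77 ± 0.22 SE, adjusted p = 0.0293, and 0.0807 with library totals alone), and it passed in 3 of the 8 fits that left out 1 liver (adjusted p up to 0.0738). The ratio of *Inhbe* to *Inhbc* in FPKM ranged from 1.18 to 1.92 among controls and from 1.46 to 2.12 among knockout livers. *Fst*, which encodes follistatin, a secreted protein that traps activins, was the lowest of the 9 genes, with 5.15, 2.37, 4.62 and 4.85 FPKM in controls and 5.38, 6.39, 6.28 and 3.75 FPKM in *Usp39*-HKO livers. Control 2 was the lowest liver, and the groups overlapped (0.14 ± 0.25 SE, 95% interval -0.41 to 0.68, adjusted p = 0.737). Exons of another gene on the opposite strand, *Gm47040*, cover 2.51% of its exon bases, and reads there cannot be told apart without strand. Among 9 other tested genes of activin subunits, receptors and binders, 1 rose and 1 fell with TMM (median -0.00013), whereas 4 rose and 0 fell with library totals alone (median 0.24). The gene that rose with TMM was *Fstl1*, a follistatin-related protein of mesenchymal cells, from 2.29 to 3.13 FPKM to 3.56 to 13.6 FPKM (1.44 ± 0.29 SE, adjusted p = 0.00555).

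*Lepr* encodes the leptin receptor, whose liver-made soluble form binds leptin in blood and rises in fasting. It stood at 13.9, 24.5, 25.7 and 20.7 FPKM in controls and at 16.0, 26.5, 15.0 and 12.6 FPKM in *Usp39*-HKO livers. *Usp39*-HKO 2 was the highest of all 8 livers, whereas the other knockout livers lay at the level of control 1 or near it. The log2 fold change was -0.50 ± 0.24 (SE, 95% interval -1.04 to 0.03, adjusted p = 0.168). Without *Usp39*-HKO 2 it was -0.77 (adjusted p = 0.0269), and this was the only alternative fit in which *Lepr* passed. With library totals alone it was -0.27 (adjusted p = 0.398). Counts cover all 7 annotated transcripts, and the soluble and membrane forms cannot be told apart.

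*Leprot*, which lies 58039 bases upstream of *Lepr* on the same strand and encodes a membrane protein that limits leptin receptor display at the cell surface, rose instead. Its levels were 12.4 to 16.3 FPKM in controls and 24.2 to 31.0 in *Usp39*-HKO livers (0.76 ± 0.12 SE, adjusted p = 0.00184). Of 7 tested leptin receptor partners, it was the only call with TMM (median 0.21), and with library totals alone 4 rose and 0 fell (median 0.45). The ratio of *Leprot* to *Lepr* in FPKM was 0.956, 0.666, 0.482 and 0.618 in controls and 1.56, 0.916, 1.94 and 2.46 in *Usp39*-HKO livers, so that only *Usp39*-HKO 2 fell within the control range. *Lep* was at 0 in every liver.

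Ordered by FPKM, the controls ran *Igfbp1* (692), *Igfbp2* (506), *Angptl4* (96.0), *Inhbe* (54.1), *Fgf21* (43.0), *Angptl8* (29.6), *Fgf1* (25.2), *Lepr* (21.2) and *Fst* (4.25). Neighbours whose livers overlapped were *Igfbp1* and *Igfbp2*, *Fgf21* and *Angptl8*, *Angptl8* and *Fgf1*, and *Fgf1* and *Lepr*. In *Usp39*-HKO livers the order was *Igfbp1* (912), *Igfbp2* (777), *Angptl4* (119), *Fgf21* (44.1), *Inhbe* (40.5), *Angptl8* (37.1), *Lepr* (17.5), *Fgf1* (10.7) and *Fst* (5.45). *Fgf1* thus moved behind *Lepr*, and *Inhbe* behind *Fgf21*, though the livers of each of these pairs overlapped in *Usp39*-HKO mice. *Igfbp1* exceeded *Igfbp2* in each control (by 1.25 to 1.55 times), but in only 2 of 4 *Usp39*-HKO livers (ratios 1.73, 0.959, 0.912 and 1.34).

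The spread between livers of 1 genotype differed widely among the 9 genes. The SD was taken on log2 CPM (counts scaled to the library total and its TMM factor). Its median within a genotype was 0.34 for them, 0.24 for all genes tested and 0.18 for the 6799 genes at or above the mean level of *Fst*. *Fgf21* had the largest pooled SD of the 9 (0.68), above that of 89.5% of all genes, and *Igfbp1* the smallest (0.22). By genotype, 7 of the 9 had the larger SD in *Usp39*-HKO livers, as did 58.9% of all genes. *Fgf21* had an SD of 0.18 among controls and of 0.94 among knockout livers, a ratio of 5.28 that 97.9% of genes did not reach. The ratio was 4.39 for *Fgf1* and 3.64 for *Inhbe*, whose controls lay within narrow ranges, and 0.57 for *Igfbp1*. These are descriptions of 4 livers a group, and no difference in spread was tested. *Usp39*-HKO 1 was the lowest knockout liver for *Fgf21*, *Angptl8*, *Igfbp2* and *Inhbe* and the highest for *Fgf1*, and it also had the lowest cholangiocyte, stellate cell and Kupffer cell marker sums of the 4. The part of those cells in these values was not tested.

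**Figure D3:**
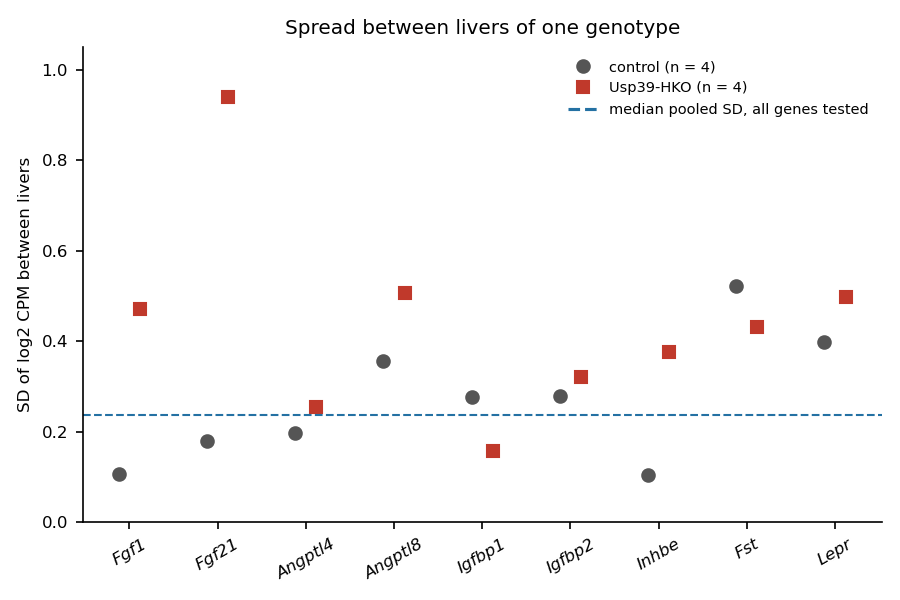
SD of log2 CPM between the 4 livers of a genotype (vertical axis, linear from 0) for each of the 9 genes, in controls (circles) and Usp39-HKO livers (squares), with the median pooled SD of all genes tested (0.24) as a dashed line. Fgf21 in Usp39-HKO livers is highest at 0.94, and 7 of the 9 genes have the larger SD in Usp39-HKO livers.

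Among genes known to respond to the same fasting and stress signals, the split of calls depended on the scaling. Of 19 tested PPAR-alpha targets, 4 rose and 2 fell with TMM (median -0.17), whereas 5 rose and 0 fell with library totals alone (median 0.06). Those that rose with TMM were *Pdk4*, which blocks pyruvate oxidation (40.8 ± 15.5 to 189 ± 68.8 FPKM, SD, n = 4 each, log2 fold change 1.96 ± 0.28 SE, adjusted p = 0.00134), the acyl-CoA thioesterase gene *Acot2* (1.90, adjusted p = 0.00348), and the lipid droplet genes *Cidec* (0.95, adjusted p = 0.0236) and *Plin2* (0.65, adjusted p = 0.0173). *Cidec* and *Plin2* each passed in 5 of the 8 fits that left out 1 liver, and neither did without control 1, control 3 or control 4 (adjusted p of 0.0530 to 0.0759). Of the genes that fell with TMM, *Cyp4a10* (-0.61), named after its values were seen, encodes an enzyme of fatty acid omega-oxidation. *Ppara* itself fell from 57.5 to 76.1 FPKM in controls to 39.8 to 53.1 FPKM (-0.83 ± 0.13 SE, adjusted p = 0.00209). *Fgf21* and *Angptl4*, the PPAR-alpha targets among the 9 genes, had values of -0.21 and 0.08 with TMM and no call. With library totals alone the values were 0.04 and 0.31, also with no call.

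Of 14 tested ATF4 targets, 4 rose and 1 fell with TMM (median 0.41), and 5 rose and 1 fell with library totals alone (median 0.65). *Atf3*, a stress-induced transcription factor, rose by 2.56 (SE 0.50, adjusted p = 0.00520), *Trib3*, a pseudokinase, by 1.97 (SE 0.28, adjusted p = 0.00126), and *Psat1*, of serine synthesis, by 1.55 (SE 0.46, adjusted p = 0.0327). *Psat1* passed in 4 of the 8 fits that left out 1 liver, and not without control 1, control 3, control 4 or *Usp39*-HKO 4 (adjusted p of 0.0572 to 0.0953), and without *Usp39*-HKO 4 its value was 0.87 (adjusted p = 0.0769). The call was also lost in limma on log2(FPKM + 1) (adjusted p = 0.0659). *Asns*, the asparagine synthetase gene, went the other way, from 5.58 to 8.63 FPKM in controls to 1.97 to 2.91 FPKM in *Usp39*-HKO livers (-1.68 ± 0.19 SE, adjusted p = 0.000557). The 3 genes whose windows hold the element core, *Fgf21*, *Angptl8* and *Inhbe*, had log2 fold changes of -0.21, 0.07 and -0.66. Among 71 other tested genes with the core in a window, 12 were called higher and 9 lower, with a median of 0.03.

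Genes under FOXO1 or glucocorticoid control had a median of -0.47, with 1 of 14 called higher (*Pdk4*, also counted above) and 2 lower. The latter were *Tsc22d3*, the glucocorticoid-induced leucine zipper (-1.02 ± 0.15 SE, adjusted p = 0.00126), and *Pck1*, of gluconeogenesis (1214 ± 96.2 to 885 ± 115 FPKM, SD, n = 4 each, log2 fold change -0.68, adjusted p = 0.0144). Under library totals, 3 genes of this list rose and 2 fell (median -0.23). *Igfbp1*, which the same factors induce, had a value of 0.16 with TMM and 0.40 with library totals alone, with no call under either. Of 11 tested insulin- and feeding-induced genes, 0 rose and 3 fell by edgeR: *Pklr* (-0.60), *Mlxipl* (-0.52) and *Acaca* (-0.46), of glycolysis and lipogenesis, none of which passed with library totals alone (adjusted p of 0.0701 to 0.263). Of the list, 1 gene was then called higher. In the 8 fits that left out 1 liver, *Mlxipl* passed in 8, *Pklr* in 3 and *Acaca* in 1. Of 21 tested transcription factors that regulate the 9 genes, 2 rose and 7 fell (median -0.24), and with library totals alone 4 rose and 2 fell. The rises were in *Nr1d1*, the clock repressor REV-ERB-alpha (1.87 ± 0.27 SE, adjusted p = 0.00122), and *Trp53* (0.77, adjusted p = 0.00348), and *Cebpa*, a hepatocyte factor, fell by 0.67 (adjusted p = 0.00747).

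Of 19 other tested genes of liver-secreted signals, 3 rose and 7 fell (median -0.24), and with library totals alone 5 rose and 4 fell. *Gdf15*, a stress hormone that curbs appetite, rose from 6.12 to 16.8 FPKM in controls to 26.4 to 102 FPKM in *Usp39*-HKO livers, with *Usp39*-HKO 3 highest (2.17 ± 0.44 SE, adjusted p = 0.00586). *Enho*, the gene of adropin, fell from 10.3 to 26.3 FPKM to 4.07 to 8.92 FPKM (-1.62 ± 0.31 SE, adjusted p = 0.00466). *Serpina12*, the gene of vaspin, was low throughout and fell from 0.520 to 1.12 FPKM to 0.0286 to 0.426 FPKM (-2.20 ± 0.50 SE, adjusted p = 0.0101), and *Itih3* fell by 0.85 (SE 0.25, adjusted p = 0.0315). *Itih3* passed in only 2 of the 8 fits that left out 1 liver (adjusted p up to 0.0926), and in neither limma fit on FPKM. Whether the share called differs between this list and the 9 genes was not tested.

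**Figure D4:**
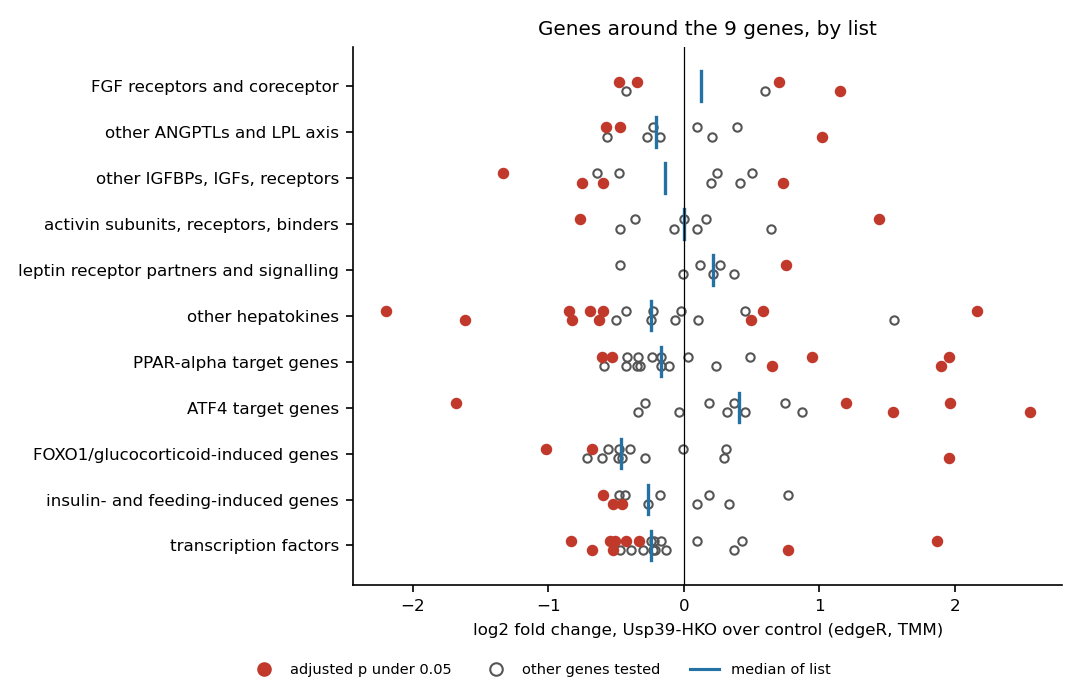
Log2 fold change (horizontal axis, Usp39-HKO over control, edgeR with TMM) of the tested genes in 11 lists around the 9 genes, with filled points for an adjusted p under 0.05, open points for the other genes and a bar at the median of each list. With this scaling most lists hold filled points on both sides of 0, which for several of them is not so with library totals alone, and the highest and lowest are Atf3 at 2.56 and Serpina12 at -2.20.

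Finally, the genes whose pattern over the 8 livers was most like that of a member were found from the root mean square difference of z-scored log2 CPM, where 0 means the same pattern. The closest pair was *Fgf1* with *Cyp4f13*, of the cytochrome P450 4F family (0.054), and next came *Fgf1* with *Psmd3*, a proteasome subunit gene (0.076). Both fell too, by 0.90 and 0.40 on the log2 scale. *Inhbe* was most like *Lman2l*, a cargo receptor gene of the secretory pathway (0.098), and *Abca2*, a lipid transporter gene (0.127). *Igfbp1* was most like *Il16* (0.155), *Igfbp2* most like *Gm15441* (0.168), and *Angptl4* most like *Rps23* (0.235). *Angptl8* was closest to *Kcnq1* (0.243), *Fgf21* to *Atg4c* (0.299), *Lepr* to *Dntt* (0.372) and *Fst* to *Tspyl1* (0.470). Since all 8 livers enter the measure and *Fgf1* and *Inhbe* differ by genotype, genes that fell in *Usp39*-HKO livers stand near them by construction.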

How the data were processed

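Liver RNA of 4 *Usp39*-HKO and 4 control mice was sequenced, with 1 library per mouse. Per the labels, libraries were made with a kit that does not mark strand, reads were aligned to mm10 with HISAT2, and featureCounts gave the counts. The authors deposited raw counts per gene, exon lengths in bases and FPKM, which scale counts to exon length and library total. The annotation release was not given in the sources used here, and exon lengths of all 9 genes equal those of GENCODE vM21 (GRCm38), which holds 99.6% of the 55385 identifiers (314 repeated entries were read once). The authors' comparison columns (mean, fold change, standard error, statistic and p-values) were not used. The labels name no batch. Between livers of a genotype, counts varied beyond counting error, with a chi-square of 6.25 to 38.1 for each degree of freedom. A floor of 3 counts equals 0.288 to 0.349 CPM by library totals without TMM, and floors cover counting error only.

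Genes that reached an FPKM of 0.5 in 4 or more livers were tested with edgeR 4.0.16 (quasi-likelihood test, TMM, R 4.3.3) on the counts, without covariates, with two-sided p-values, Benjamini-Hochberg adjustment over the tested genes and calls at an adjusted p under 0.05. The test was first tested on simulated data. P-values rest on 4 mice a group. Alternatives were DESeq2 1.42.0, median-ratio factors, no TMM, other filters, limma 3.58.1 on log2(FPKM + 1) and log2(FPKM + 0.1), voom with quality weights, the study's cutoff, and leaving out each liver. Members, lists and markers were chosen with earlier results of these data known. Each list names up to 4 called genes with the largest change, and the 2 genes most like each member were listed. Some called genes of the lists are not reported here.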

Additional observations from a re-analysis of the deposited data

Results flagged for a closer look

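The summed FPKM of 11 pancreatic acinar markers was 652.8 in control 4 and at most 0.753 in the other 3 controls. In a group of 4 livers, the gap to the nearest liver was 0.999 of the range, above the limit for a sample that stands apart. For the 9 genes and *Usp39*, no group of livers stood out in either genotype, where chance flags about 1 in 20 groups. With the acinar sum in the controls there were 21 such tests. It was the only marker sum tested, and markers were chosen with earlier results of these data known. Its flag thus describes control 4 and is not the outcome of a screen. Without control 4, *Fgf1* had a log2 fold change of -1.42 and *Inhbe* one of -0.70 (adjusted p = 0.0344, edgeR), and all islet markers except *Ins2* were at 0 in that liver too. The source of the acinar reads was not tested.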

How the results depend on the processing

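The 2 calls among the 9 genes, *Fgf1* and *Inhbe*, were made in each fit that left out 1 liver and with DESeq2, median-ratio factors, voom weights and other filters, and with the study's cutoff (unadjusted p under 0.05 and a log2 fold change beyond 0.5) in place of the adjusted p. With library totals alone, limma on log2(FPKM + 1) and limma on log2(FPKM + 0.1), 1 gene was called higher (*Igfbp2*) and 1 lower (*Fgf1*), and with voom weights 1 was higher (*Igfbp2*) and 2 lower. These limma fits use FPKM without TMM. Of the 14340 genes tested, 4221 were called with library totals alone and 4194 with voom weights. The limma fits on FPKM called 3668 and 3687, against 3225 in the main fit. Signs turned only for genes with no call: *Fgf21* was 0.040 with library totals alone and -0.59 to 0.088 in fits without 1 liver, *Angptl8* was -0.14 to 0.27 and *Fst* -0.063 to 0.31 in the latter. Leaving out control 2, the lowest liver for *Fst*, gave the lowest of its values. Over all genes, 3225 were called, 1595 with a mean FPKM of at least 5, which tests fewer genes, and 1931 to 3510 without 1 liver. Among fits without 1 liver, the counts over 1.5 times lower were 1931 without control 3, 2043 without control 4 and 2094 without *Usp39*-HKO 4. The count was 3259 without control 2 and 3510 without *Usp39*-HKO 1, so it depended on which liver was left out. Of 35 other named genes, 23 were called in every fit without 1 liver, 24 in every other alternative, and 0 changed sign. The study calls the controls littermates, but the labels give no litter or pairing. A paired analysis was thus not possible, and litter was not part of any fit. At 4 livers a group, the 95% intervals of the 7 genes without a call spanned at least 0.65 on the log2 scale.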
